A study of Mus musculus with 12 samples.

Results

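The replication-dependent histone genes were measured in the livers of 12 male C57BL/6J mice, with 1 Affymetrix array per animal. They were found as the probe sets, called probes here, that carried 1 gene symbol and whose current or older symbol belongs to the clustered histone families (Hist1h, Hist2h, Hist3h and Hist4h in older names). That gave 31 genes of the 19938 on the array, each with 1 probe: 5 of the linker histone H1, 5 of H2A, 11 of H2B, 3 of H3 and 7 of H4. The current symbol gave 22 of them, and the other 9 were recognised by an older symbol of the same gene in RefSeq. RefSeq places 23 on chromosome 13, 4 on chromosome 3, 3 on chromosome 11 and 1 on chromosome 6. One of the 31, H2bu1-ps, is a pseudogene.

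The 4 groups had 3 animals each. They were first-generation (G1) knock-outs (KO) of mTERT, the protein subunit of telomerase that Tert encodes, G1 knock-outs of mTR, its RNA subunit that Terc encodes, and wild-type (WT) mice from the litters of either line. The animals were untreated, matched for age and sex, and taken in 3 sets per line in which the WT and the KO mouse were littermates. The number 1, 2 or 3 in each title was taken to name the set. There are then 6 litters, and animals numbered 1 of the mTERT line come from another litter than those numbered 1 of the mTR line. G1 animals lack the enzyme but have not gone through later generations of breeding without it. The labels give neither the age in numbers nor how either allele was made.

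Replication-dependent histone genes supply the proteins that wrap newly made DNA into nucleosomes. H2A, H2B, H3 and H4 form the core of the nucleosome, and H1 binds the DNA that links the cores. Most of their transcripts are made in S phase, when DNA is copied, and end in a short stem-loop in place of a poly(A) tail, which ties their stability to DNA replication; in adult liver most hepatocytes are not dividing. The label was made here with random primers, which do not need a poly(A) tail. Many copies within a class are nearly identical, so a probe assigned to a single gene can still take up RNA of its relatives, and every value below is that of a probe rather than of a proven single copy.

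RefSeq's table of sequences around gene starts (GRCm38.p6) held 26 of the 31 genes. The 250 bases before the start are printed for 5 members that differed most between arrays: 3 H2B genes that were higher in the animals numbered 1, and an H4 and an H1 gene that were lower there. Capitals mark the octamer ATTTGCAT, the TATA box TATAAA and the CCAAT box CCAAT, each searched on both strands, so that ATTGG is the CCAAT box on the other strand.
H2bc14, chr13:21721794-21722043, plus strand: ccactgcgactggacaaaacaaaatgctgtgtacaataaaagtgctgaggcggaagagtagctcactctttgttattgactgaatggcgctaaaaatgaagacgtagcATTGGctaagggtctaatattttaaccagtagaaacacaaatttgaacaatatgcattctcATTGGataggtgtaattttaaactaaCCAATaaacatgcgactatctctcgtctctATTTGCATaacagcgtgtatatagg
H2bc8, chr13:23571150-23571399, plus strand: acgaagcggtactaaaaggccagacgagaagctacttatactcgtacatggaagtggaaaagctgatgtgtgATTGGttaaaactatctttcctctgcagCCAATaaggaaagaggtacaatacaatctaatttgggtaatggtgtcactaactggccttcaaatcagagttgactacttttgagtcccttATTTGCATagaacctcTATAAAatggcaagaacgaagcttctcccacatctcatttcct
H2bc9, chr13:23543445-23543694, minus strand: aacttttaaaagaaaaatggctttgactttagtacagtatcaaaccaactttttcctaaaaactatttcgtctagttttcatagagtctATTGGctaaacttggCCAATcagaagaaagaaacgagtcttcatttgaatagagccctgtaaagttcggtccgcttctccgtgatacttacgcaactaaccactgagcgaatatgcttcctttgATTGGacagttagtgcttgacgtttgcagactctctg
H4c4, chr13:23581318-23581567, plus strand: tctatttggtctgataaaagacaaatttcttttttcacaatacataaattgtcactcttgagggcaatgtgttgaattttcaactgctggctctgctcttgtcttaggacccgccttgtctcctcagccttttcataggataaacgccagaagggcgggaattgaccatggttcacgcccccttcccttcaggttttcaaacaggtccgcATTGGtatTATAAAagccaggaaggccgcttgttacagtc
H1f5, chr13:21780626-21780875, minus strand: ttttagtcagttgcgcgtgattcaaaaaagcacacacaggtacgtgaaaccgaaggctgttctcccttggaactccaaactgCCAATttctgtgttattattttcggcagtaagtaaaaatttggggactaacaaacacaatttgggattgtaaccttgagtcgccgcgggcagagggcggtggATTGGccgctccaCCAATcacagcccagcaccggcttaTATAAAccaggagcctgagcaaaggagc

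The octamer stood in the windows of H2bc14, with its first base at -25 from the start, and of H2bc8, at -59, and was not in those of H2bc9, H4c4 or H1f5. Among all members with a window, 5 of 8 H2B and 4 of 5 H2A genes held it, against 0 of 5 H1, 0 of 2 H3 and 0 of 6 H4 genes. In all 32851 promoter windows of the table the share with the octamer was 1.6%. H2bc8 and H2ac8 lie on opposite strands with starts 180 bases apart, and H2bc1 and H2ac1 likewise 281 bases apart, so the windows of each pair overlap. Both genes of each of these pairs hold the same octamer, which is thus counted under H2B and under H2A. The CCAAT box stood in 21 of the 26 windows (33.8% of all windows) and the TATA box in 15 (12.4%). It was in all 8 H2B, all 5 H2A and all 5 H1 windows but in 2 of 6 H4 windows. A match is a description of these letters and not evidence of a bound factor.

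Some facts of the whole series touch these genes. On the log2 intensity scale Tert read 3.95 to 4.15 in the mTERT KO animals and 4.13 to 4.83 in their WT littermates, which overlap. Terc read 3.87 to 4.33 in the mTR KO animals and 4.12 to 4.24 in their WT littermates. All these Terc values lie at or below the background of 4.34, the level that 95% of 1027 olfactory receptor genes did not exceed, so this probe does not check the mTR labels. Hepatocyte markers averaged 11.94 to 12.22 in the 12 arrays. Transcripts of pancreas or of skeletal muscle were present in 6 arrays (mTERT KO 1, mTERT WT 1, 2 and 3, mTR KO 1 and mTR WT 2). The arrays numbered 1 also differed from the rest over much of the array, as given with the comparison by number. These are bulk samples, in which fewer cells of a type and less RNA per cell cannot be told apart.

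The level of the members differed more between genes than between animals. Their means over 12 arrays ran from 3.65 (H2bc18) to 9.83 (H2bc4), and 22 of 31 lay above the background. In all 12 arrays, 17 members were above it. The tests below used probes at or above the 30th percentile of all probe means (3.90), which kept 26 members and left out H1f6, H2ac4, H2bc18, H3c7 and H3c15. The scale compares animals for 1 probe and does not rank genes by number of transcripts.

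Of the linker histones, H1f2 encodes H1.2 and was the brightest at a mean of 7.09, with values from 6.54 to 7.40. H1f5 (H1.5) had a mean of 5.68 and ran from 4.89 to 6.77. Its SD over the 12 arrays was 0.528, second among the 31 members to the 0.531 of H2bc14. H1f1 (H1.1) lay between 5.05 and 5.83. H1f3 had a mean of 4.43 and passed the background in 9 arrays. H1f6, the linker histone of testis, was below it in all 12.

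Among the H2A genes, H2aw had the highest mean at 5.53, followed by H2ac15 at 5.14, H2ac1 at 4.86 and H2ac8 at 4.61. H2ac1, known as a testis H2A, gave 4.70 to 5.06 over the 12 arrays. H2ac4 was at background throughout. The H2B genes spanned the widest range. H2bc4 was the brightest member of any class, at 9.48 to 10.20, and is known to give polyadenylated transcripts in cells that have left the cycle. The next H2B genes were H2bc9 at a mean of 5.22, H2bc14 at 4.83 and H2bc8 at 4.74. The remaining 7 H2B members had means of 4.41 or less.

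Only H3c4 represents H3 among the tested members, with a mean of 4.71 and values from 4.62 to 4.96; H3c7 (3.88) and H3c15 (3.75) were at background. All 7 H4 genes were above the background in every array. H4c4 led at a mean of 6.92, then H4c14 at 6.09, H4c9 at 5.61, H4f16 at 5.19, H4c6 at 4.85, H4c8 at 4.79 and H4c3 at 4.70. H4f16 is the H4 gene outside the large clusters.

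**Figure D1:**
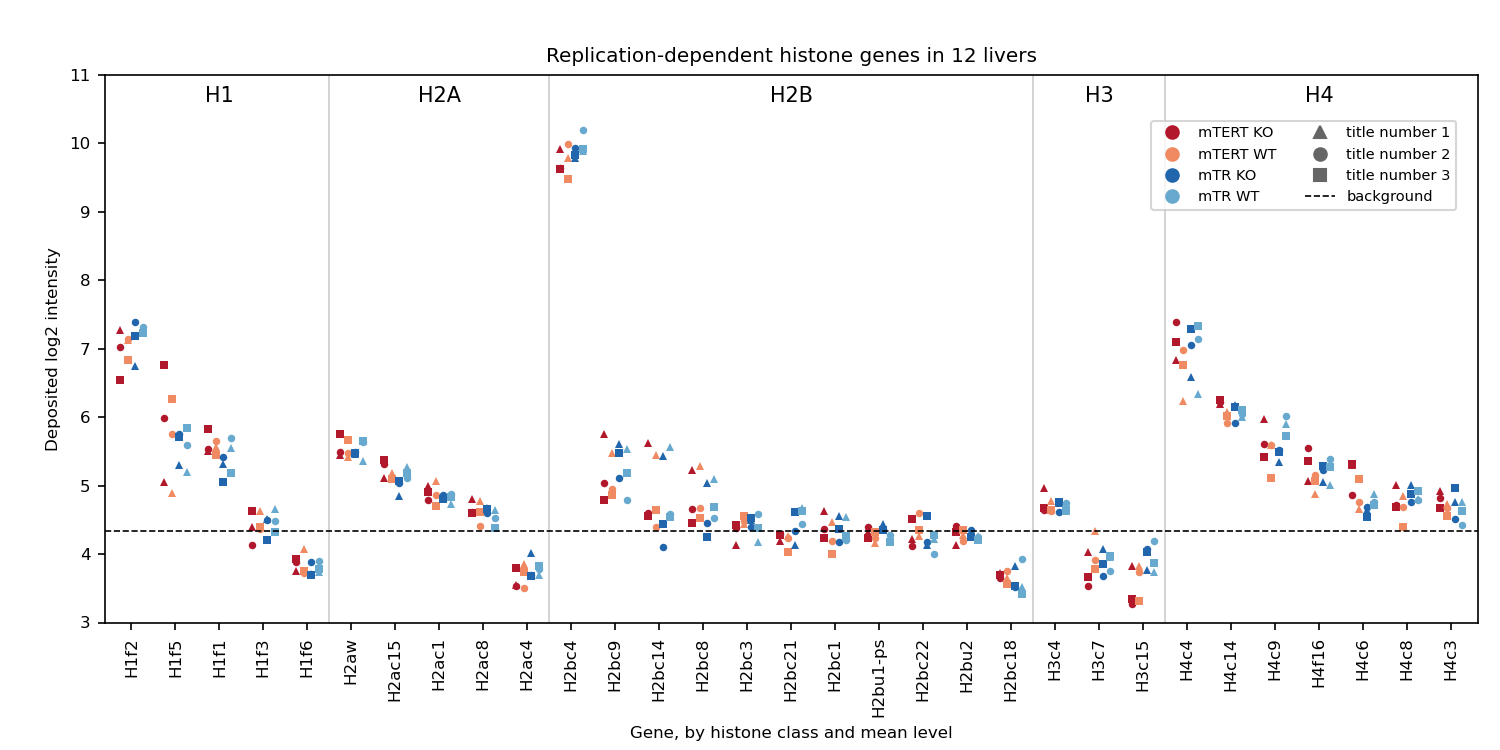
Deposited log2 intensity (vertical axis) of the 31 genes (horizontal axis, by class and mean level) in each of the 12 arrays, coloured by group, with the title number as the marker shape and the background of 4.34 as a dashed line. H2bc4 stands apart near 9.83, the H4 genes all lie above the line, and the triangles of number 1 sit above the other arrays for H2bc14 and H2bc8 and at the foot of the column for H1f5.

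A further 27 probes carried several histone symbols and therefore named no single member: 10 of H3, 7 of H2B, 6 of H4, 2 of H2A and 2 of mixed class. They hold 57 histone genes, of which 38 are not members. They are brighter than most members, with array means of 6.71 to 7.49 for H3, 6.84 to 7.89 for H2B, 6.79 to 7.20 for H4 and 8.26 to 8.57 for H2A. Since H3 has only 1 tested member, these probes carry most of what the array says about that class, and they are given beside the members below.

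The first comparison asks whether the loss of mTERT changed histone transcripts in G1 livers. No member passed the test: limma called 0 of 26 members and 0 of 20197 probes (0.0%) at an adjusted p under 0.05. At an unadjusted p under 0.05 there were 2 members, both H4, and 283 probes (1.4%). Without mTERT WT 2 the number of called probes was 41, and the number of called members stayed at 0. The median log2 difference of the tested members was 0.08, beside 0.01 for all tested probes. All 7 H4 members were above WT, by 0.15 to 0.44, with a class median of 0.24. H1 had a median of -0.01, H2A of 0.06 and H2B of 0.04.

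The H4 genes kept that sign in each litter. All 7 were higher in KO than in the WT littermate in 3 of 3 litters, where 13.9% of all tested probes were, and the other classes together had 4 of 19 tested members of that kind. The H4c4 level was 6.84, 7.39 and 7.09 in KO 1, 2 and 3 and 6.24, 6.99 and 6.77 in their WT littermates. KO was thus above its littermate each time, by 0.60, 0.41 and 0.33, but the lowest KO value lay below the highest WT value. The fitted difference was 0.44 (SE 0.28), with a 95% interval of -0.17 to 1.06, in a fit that did not pair littermates. H4c6 gave 5.30, 4.86 and 5.31 in KO and 4.66, 4.76 and 5.09 in WT, a difference of 0.32 (SE 0.14). H4f16 gave 5.07, 5.55 and 5.36 against 4.88, 5.15 and 5.06, a difference of 0.29 (SE 0.14).

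H4c14 was the H4 gene whose groups did not overlap. Its level was 6.20, 6.22 and 6.25 in mTERT KO and 6.08, 5.92 and 6.02 in mTERT WT, a difference of 0.22 (SE 0.10; adjusted p = 1.0 in limma). H2bc3 was the only tested member with KO wholly below WT: 4.13, 4.38 and 4.43 against 4.44, 4.48 and 4.55, a difference of -0.18 (SE 0.12; adjusted p = 1.0 in limma), and of -0.09 without mTERT KO 1. KO was wholly above WT for 2.47% of all tested probes and wholly below for 1.86%. The 7 H4 values are not 7 independent readings, since the copies are near-identical and come from the same 6 arrays. The 6 shared H4 probes were also all above 0, at 0.17 to 0.27, and 3 of them were higher in 3 of 3 litters; 2 of the 6 hold the same values. All 10 shared H3 probes (0.09 to 0.22) and all 7 shared H2B probes (0.04 to 0.18) were above 0 too, and none was called. All 3 mTERT WT arrays carry pancreas or muscle transcripts and 1 of the 3 KO arrays does. A fit with the pancreas and muscle means as covariates, chosen after seeing the data, also called no member in this comparison. Since no member was called without the covariates either, that count does not show whether the H4 differences change with them. The part of these transcripts in the H4 differences was not tested.

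For the loss of mTR, limma again called 0 of 26 members and 0 of 20197 probes (0.0%). At an unadjusted p under 0.05 there was 1 member, H4c9, and 195 probes (0.965%). The median of the members was 0.03, beside -0.01 for all tested probes. Here the H4 class did not share a sign: 4 of 7 were above 0, with a median of 0.03 and a range of -0.43 to 0.14. The H1 class had 1 of 4 tested members above 0 and a median of -0.12.

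H4c9 gave the largest difference among the 31 members in the mTR line. Its level was 5.35, 5.52 and 5.48 in the KO animals against 5.90, 6.02 and 5.72 in their littermates, so all KO values lay below all WT values. The difference was -0.43 (SE 0.16; adjusted p = 1.0 in limma). H2ac15 was 4.85, 5.04 and 5.07 in KO and 5.28, 5.11 and 5.19 in WT, a difference of -0.20 (SE 0.10). H4c6 was 4.64, 4.69 and 4.54 against 4.87, 4.75 and 4.72, a difference of -0.16 (SE 0.14). In the other direction the pseudogene H2bu1-ps was 4.44, 4.37 and 4.35 in KO and 4.23, 4.28 and 4.18 in WT, a difference of 0.15 (SE 0.09) at a level near the background. KO was wholly below WT for these 3 of 26 tested members and for 2.64% of all tested probes, and wholly above for this 1 member and 1.84% of probes. The shared H4 probes lay at -0.12 to -0.00, the shared H3 probes at -0.09 to 0.04 and the shared H2B probes at -0.04 to -0.00.

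**Figure D2:**
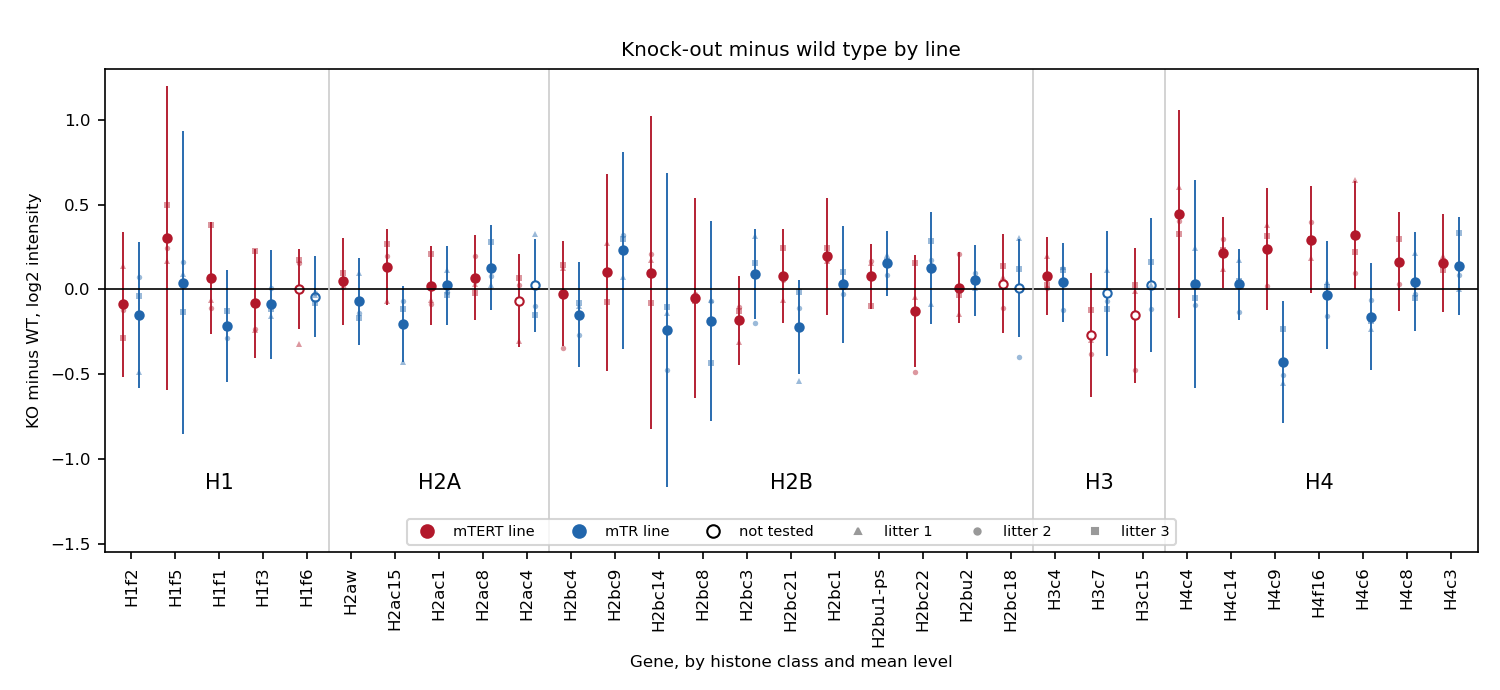
KO minus WT difference in log2 intensity (vertical axis) of each gene (horizontal axis), with large points for the fitted value, bars for its 95% interval, small symbols for the 3 litters and open points for genes below the filter. In the mTERT line (red) the 7 H4 genes lie at 0.15 to 0.44, and in the mTR line (blue) they run from -0.43 to 0.14; no gene was called in either line.

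Over both lines together the average KO difference had a median of 0.026 over the 26 tested members, and of 0.016 to 0.045 with 1 animal left out. Over all 31 the median was -0.0015, with 15 above 0, 16 below and a range of -0.15 to 0.24, and limma called 0 members and 0 probes (0.0%). The difference between the lines, the mTR effect minus the mTERT effect, was tested in the same fit. It too called 0 of 26 members and 0 of 20197 probes (0.0%), with an unadjusted p under 0.05 for 3 members and 293 probes (1.45%). All 7 H4 members were below 0 in it, at -0.67 to -0.01 with a median of -0.33, beside -0.02 for all tested probes. H4c9 had the largest value, -0.67 (SE 0.23; adjusted p = 0.9998 in limma). H4c6 was at -0.48 (SE 0.20), H4c4 at -0.41 (SE 0.40) and H4f16 at -0.33 (SE 0.20); outside H4, H2bc14 was at -0.34 and H2ac15 at -0.34. The 3 mTR litter differences lay wholly below the 3 mTERT litter differences for 8 of 26 tested members, 4 of them H4, and for 7.47% of all tested probes.

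The WT groups of the lines were compared with each other, which asks how far the lines differ without a knock-out. Here limma called 0 of 26 members and 0 of 20197 probes (0.0%), and 525 probes (2.6%) had an unadjusted p under 0.05. The H4 members had a median of 0.19, with 5 of 7 above 0, beside 0.01 for all tested probes. The medians of H1, H2A and H2B were -0.03, -0.02 and 0.03. Shared H4 probes lay at 0.07 to 0.20. The H4 differences of the mTERT knock-out are measured from the same mTERT WT animals. H2bc21, an H2B gene of the chromosome 3 cluster, was 4.26, 4.24 and 4.03 in mTERT WT and 4.67, 4.44 and 4.62 in mTR WT, a difference of 0.40 (SE 0.13; adjusted p = 0.9999 in limma). H4c9 was 5.59, 5.59 and 5.11 in mTERT WT and 5.90, 6.02 and 5.72 in mTR WT, a difference of 0.45 (SE 0.16). The KO difference of H4c9 in the mTR line uses the same 3 mTR WT animals. Without mTERT WT 3 the difference between the WT groups was 0.29. H1f2 was 7.13, 7.15 and 6.83 against 7.23, 7.32 and 7.23, a difference of 0.22 (SE 0.20), and of 0.12 without mTERT WT 3. For these 3 of 26 tested members mTR WT lay wholly above mTERT WT, as it did for 3.61% of all tested probes.

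The clearest differences among the members followed the title number. The 4 animals numbered 1, one from each group, were compared with the 8 animals numbered 2 and 3, with the group means removed. limma called 7833 of 20197 probes (38.8%), 3526 higher (17.5%) and 4307 lower (21.3%) in number 1. Of the 26 tested members 7 were called (26.9%), 4 higher and 3 lower, a smaller share than over all probes. The difference had the same sign in all 4 groups for 7 tested members above 0 (24.1% of all tested probes) and for 4 below 0 (29.0%). The called members differed by class: 4 of 10 H2B members were higher and 0 lower, 2 of 7 H4 and 1 of 4 H1 members were lower and 0 higher, and 0 of 4 H2A members and 0 of 1 H3 member were called. The classes as a whole did not move: their tested medians were 0.007 (H1), 0.008 (H2A), 0.007 (H2B) and 0.038 (H4), and H3 had 1 tested member. Values above 0 were found for 5 of 10 H2B, 5 of 7 H4, 3 of 4 H1 and 2 of 4 H2A members.

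H2bc14 rose most. It was 5.62 and 5.45 in the animals numbered 1 of the mTERT line (KO, then WT), 5.43 and 5.57 in those of the mTR line, and 4.10 to 4.64 in the 8 others. The 4 animals all lay above the 8 for 3 of 26 tested members and for 10.4% of all tested probes, and all below for 2 members and 12.6% of probes. The difference was 1.04 (SE 0.07; 2.05-fold; adjusted p = 3.97e-06 in limma), and it was 1.04, 0.93, 1.16 and 1.01 within the 4 groups. H2bc8 was 5.23, 5.28, 5.03 and 5.10 in number 1 and 4.25 to 4.74 in the others, again without overlap. Its difference was 0.63 (SE 0.07; 1.55-fold; adjusted p = 6.92e-05 in limma).

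H2bc9 was 5.75, 5.48, 5.61 and 5.53 in number 1 and 4.79 to 5.48 in the others, where mTR KO 3 at 5.48 met the lowest number 1 animal. Its difference was 0.56 (SE 0.11; 1.48-fold; adjusted p = 0.00185 in limma). H2bc1, known as the testis H2B gene, was 4.64, 4.47, 4.56 and 4.55 in number 1 and at most 4.37 in the others, a difference of 0.33 (SE 0.07; adjusted p = 0.0029 in limma). Its mean of 4.33 lies at the background. The olfactory receptor genes, which mark the background, were themselves higher in number 1, by a median of 0.14 over all 1027 and of 0.17 over the 310 tested. The brightest H2B gene, H2bc4, did not follow: its difference was 0.02, with a 95% interval of -0.17 to 0.21.

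H1f5 fell most. It was 5.06, 4.89, 5.30 and 5.20 in number 1 and 5.60 to 6.77 in the others, without overlap. The difference was -0.85 (SE 0.15; 1.80-fold lower; adjusted p = 0.00129 in limma). It was -1.33 within mTERT KO, -1.12 within mTERT WT, -0.44 within mTR KO and -0.51 within mTR WT. The difference of these shifts between the lines was 0.75 (SE 0.28), which did not pass the test (adjusted p = 0.826 in limma). The other tested H1 genes differed by 0.01 (H1f1), 0.01 (H1f2) and 0.17 (H1f3).

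H4c4 was 6.84, 6.24, 6.59 and 6.34 in number 1 and 6.77 to 7.39 in the others, a difference of -0.63 (SE 0.10; 1.55-fold lower; adjusted p = 0.000573 in limma). Only mTERT KO 1 lay within the range of the others. H4f16 was 5.07, 4.88, 5.05 and 5.01 in number 1 and 5.06 to 5.55 in the others, a difference of -0.29 (SE 0.06; adjusted p = 0.00382 in limma). The other 5 H4 members lay at 0.03 to 0.19 and were not called. H2ac8, whose start lies 180 bases from that of H2bc8, differed by 0.18 (SE 0.07; adjusted p = 0.0536 in limma), in the same direction as its neighbour but short of the threshold. H2ac1, the partner of H2bc1, differed by 0.07 (SE 0.08; adjusted p = 0.459 in limma).

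**Figure D3:**
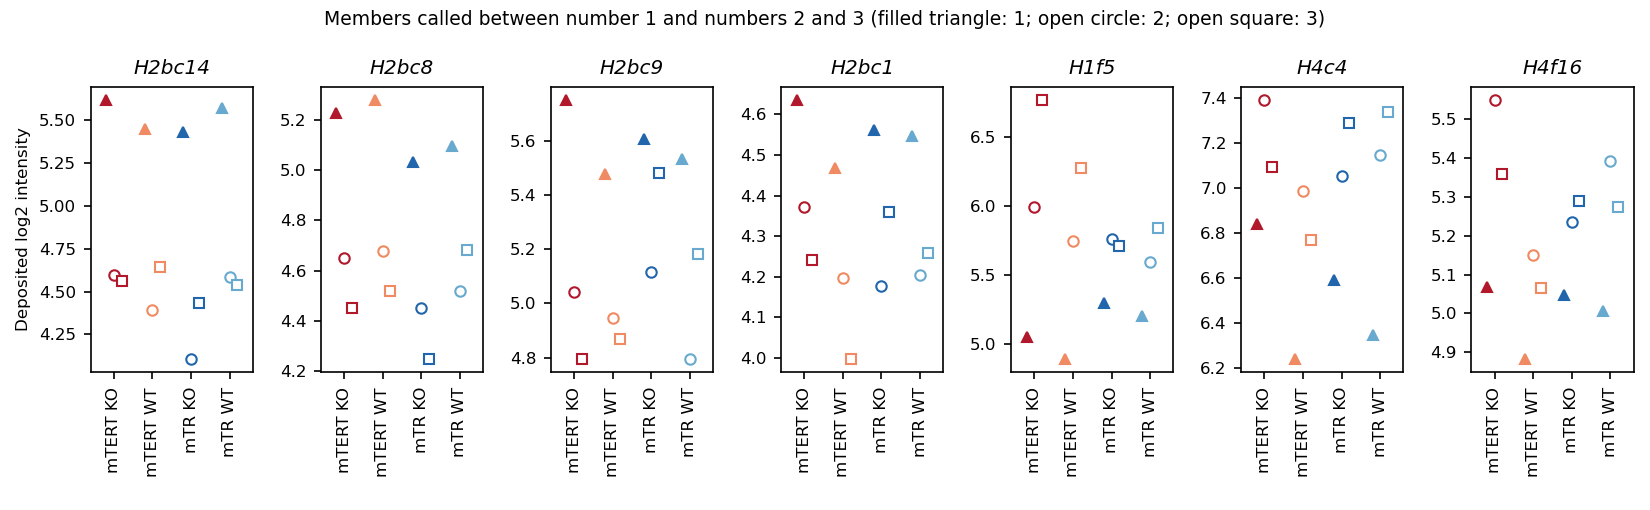
Deposited log2 intensity (vertical axes, each with its own range) of the 7 members called between number 1 and numbers 2 and 3, by group (horizontal axis). Filled triangles are the animals numbered 1, open circles those numbered 2 and open squares those numbered 3; within every group the triangle is the highest point in the 4 H2B genes and the lowest in H1f5, H4c4 and H4f16.

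The shared probes split by class in the same comparison, where 17.5% of all tested probes were called higher and 21.3% lower. All 7 shared H2B probes were called higher, by 0.67 to 1.03, and 2 of the 7 gave equal values to 2 decimals. Each of the 7 carries 14 or 15 H2B symbols, so they are not 7 independent readings. Their mean was 7.89, 7.88, 7.86 and 7.79 in number 1 and 6.84 to 7.17 in the other animals. None of the 10 shared H3 probes (-0.13 to 0.02) and neither shared H2A probe (-0.15 and 0.04) was called. Of the 6 shared H4 probes 1 was called lower, at -0.37 (SE 0.13; adjusted p = 0.0451 in limma). That probe was the dimmest of the 6, with a mean of 4.66 and 2 symbols, and its shift was below 0 in 3 groups and above 0 in 1. The shared probes can take up RNA of the member genes, so they are not separate evidence for them.

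**Figure D4:**
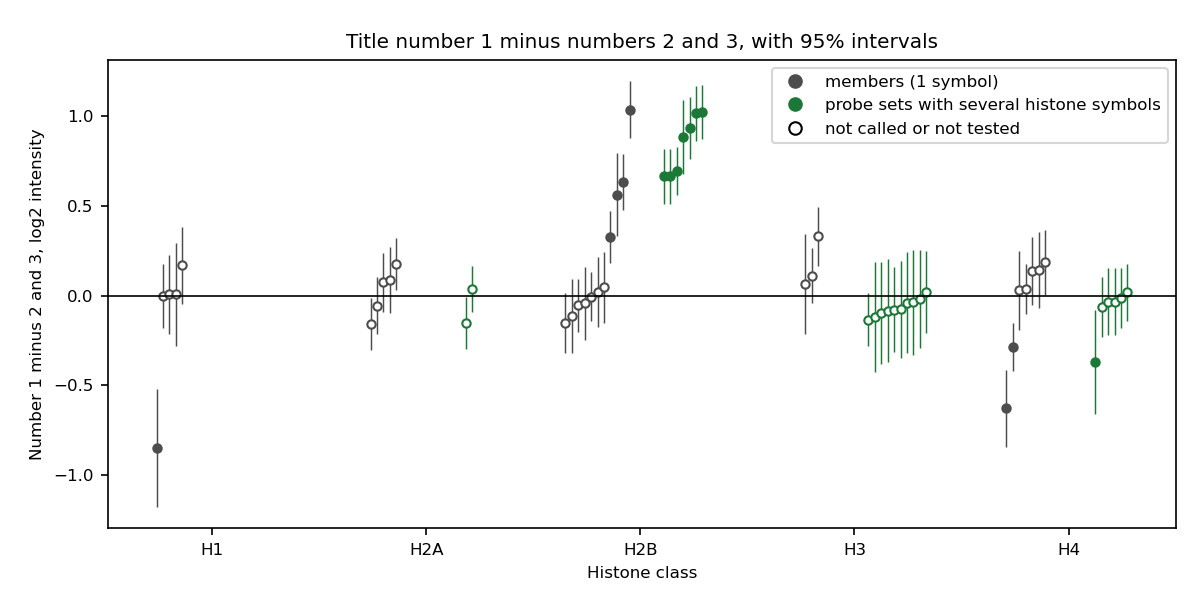
Difference of number 1 from numbers 2 and 3 in log2 intensity (vertical axis) by histone class (horizontal axis), for members (grey) and for probes with several histone symbols (green). Bars are 95% intervals and filled points were called; the 7 shared H2B probes lie at 0.67 to 1.03, while the shared H3 probes lie at -0.13 to 0.02.

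Other transcripts moved with the title number, by which 17.5% of all tested probes were called higher and 21.3% lower. Of 49 tested small nucleolar RNA genes, which like most histone transcripts lack a poly(A) tail, 45 were called higher in number 1 and 0 lower, with a mean level of 6.44 to 6.67 against 5.18 to 5.34. Of 8 other short non-coding RNA genes 6 were called higher. The part of these RNA classes in the histone differences was not tested. The pancreas list of 12 genes was at a mean of 3.95 to 11.2 in number 1 and 3.86 to 8.91 in the others, with 3 called higher. The muscle list of 12 ran from 3.86 to 6.97 and from 3.91 to 6.60, with 0 called. For the mTR line the number 1 KO and WT animals had pancreas means of 11.2 and 3.95 and muscle means of 3.86 and 4.25. Their H2bc14 levels were 5.43 and 5.57. Within the mTERT line these pancreas means were 9.76 and 7.43, the muscle means 4.54 and 6.97 and the H2bc14 levels 5.62 and 5.45. Beyond the covariate fit given next, the part of these transcripts in the histone differences was not tested. With the pancreas and muscle means as covariates, added after the data were seen, limma called 2288 probes and 3 members: H2bc14 at 0.95 (adjusted p = 0.00316), H2bc8 at 0.62 (adjusted p = 0.0163) and H4c4 at -0.74 (adjusted p = 0.0181). H1f5 (-0.66), H2bc9 (0.62), H2bc1 (0.36) and H4f16 (-0.31) kept their sign and were not called there in limma, at adjusted p of 0.124, 0.0652, 0.0839 and 0.105.

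Within each line alone limma called 6 of these 7 members with the same sign, the exception being H4f16 (adjusted p = 0.0738 and 0.0721). The 7 had been picked from all the arrays, of which each line is a part, so this is not a separate check. Number 3 minus number 2 called 0 members and 0 probes (0.0%), with 2 members and 1406 probes (6.96%) at an unadjusted p under 0.05. For the difference of the number 1 shift between the lines, mTR minus mTERT, limma called 0 of 26 tested members and 1 of 20197 probes (0.00495%). At an unadjusted p under 0.05 there were 1121 probes (5.55%) and 2 members, H1f5 as given above and H1f2, at -0.61 with a 95% interval of -1.12 to -0.10. H3c15, at background and not tested, was at -0.69 with an interval of -1.08 to -0.31.

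Genes around the histone pathway were read from lists made by function. In the mTERT and mTR knock-out comparisons limma called none of the 9 variant histone genes, 18 histone mRNA processing genes, 14 histone chaperones and 32 S-phase genes that were tested. The S-phase list had a median of 0.05 with the loss of mTERT and of -0.01 with the loss of mTR. By title number, 12 of 18 processing genes were called, 5 higher and 7 lower in number 1. Of all tested probes 38.8% were called, 17.5% higher and 21.3% lower. Tut4, which adds uridines to histone mRNA as it is degraded, was 5.99 to 6.34 in number 1 and 6.99 to 7.57 in the others, a difference of -1.11 (SE 0.10; adjusted p = 1.83e-05 in limma). Eri1, the exonuclease that trims the histone stem-loop, differed by -0.43 (SE 0.07; adjusted p = 0.000612 in limma).

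Of the 9 variant histone genes, which are expressed outside S phase, 4 were called higher and 1 lower in number 1. H2az1, encoding H2A.Z, was 7.55 to 7.91 in number 1 and 6.73 to 7.13 in the others, a difference of 0.82 (SE 0.07; adjusted p = 1.53e-05 in limma). Of 14 chaperones 2 were called higher and 4 lower; Atrx, which helps place H3.3, differed by -0.73 (SE 0.07; adjusted p = 2.87e-05 in limma). Of 32 S-phase genes only 2 were called higher and 2 lower, below the 38.8% of all probes. Pola1, a subunit of the DNA polymerase that starts new strands, differed by -0.39 (SE 0.09), and Top2a, the topoisomerase of dividing cells, by 0.49 (SE 0.13).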

How the data were processed

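Total RNA of 12 livers was extracted with Trizol, cleaned on RNeasy columns, amplified once with random primers and labelled with biotin, per the labels' protocols. The values are the log2 intensities that the authors deposited in the series matrix; per the submitters' processing notes the tools were PLIER, GCOS 1.4 and Affymetrix Expression Console, with no role or order. No source states the logarithm's base, which was read as 2 from the range of 2.62 to 13.83; the normalization is not given in the sources used here. For arrays, their number limits the precision.

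Of 28853 probes, the 20197 whose mean reached the 30th percentile were fitted in limma 3.58.1 (R 4.3.3) with 4 group means, and with the title number for the comparisons by number; tests were two-sided with eBayes and Benjamini-Hochberg adjustment over all 20197, at 0.05. P-values measure the spread between animals. The KO and WT comparisons had no term for litter or title number. Their SEs, intervals and p-values therefore count the differences between litters as spread. Symbols came from the platform annotation, which can be old, matched by Entrez identifier to RefSeq (21698 probes matched). Named members are the 3 brightest per class and, per comparison, up to 8 that were called or, with none called, up to 3 per direction whose groups did not overlap; of each other list up to 3 with the smallest p. H4 genes were also described together because they shared a sign, which was seen in the data. The members and lists were chosen with earlier results of these data known.

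Littermates were checked for pairing: deviations of same-numbered KO and WT arrays from their group means had correlations of 0.692, 0.135 and 0.623 (mTERT) and 0.458, 0.151 and 0.552 (mTR). KO 2 correlated more with WT 3 than with WT 2, at 0.416 (mTERT) and 0.464 (mTR). A shift by title number common to the groups also gives same-numbered arrays like deviations, so this check cannot show that they are littermates. The pairing rests on the series' statement on litters and on reading the title number as the set. Alternatives were quantile normalization, median centring, other filters, a trend with robust eBayes, another threshold, the groups compared only, the litter as a block and each animal left out. The fit was tested on simulated data for these 20197 probes: of 200 probes changed by 1 on the log2 scale, 81.5% were called in the mTERT knock-out comparison and 98.5% in the comparison by number. The simulated noise was independent between arrays. It held no shift shared by littermates or by title number apart from the change put in, unlike the data.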

Additional observations from a re-analysis of the deposited data

Results flagged for a closer look

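Within sets of 6 arrays, the gap from an extreme array to its nearest neighbour was compared with the range of the set by Dixon's criterion. Chance exceeds it in about 1 of 20 sets. For the members 62 sets were examined and 2 exceeded it. H2aw in mTERT KO 3 was 5.76 among the 6 KO arrays, where the nearest was 5.50 and the lowest 5.45. H4c14 in mTR KO 2 was 5.91, where the nearest KO array was 6.15 and the highest 6.25.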

How the results depend on the processing

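No member was called in any KO or WT comparison under any alternative run. Leaving out 1 animal at a time moved the number of probes called in limma to 0 to 41 for mTERT KO, 0 to 28 for the average KO effect, 0 to 30 for the difference of the KO effects and 0 to 42 between the WT groups; each of those maxima came without mTERT WT 2. The litter as a replicate block called 0 probes and 0 members in the KO comparisons and changed no call; as a random block, the comparison of number 1 called 7805 probes and 7 members. That comparison called 2288 probes and 3 members with the pancreas and muscle means as covariates, 3750 probes within the mTERT line and 4688 within the mTR line, and each of its 7 members was called in 12 of 12 fits that left out 1 animal. Number 3 minus number 2 called 13 probes within the mTERT line and 1 within the mTR line. The difference of the number 1 shift between lines called 0 probes after median centring, 7 with a trend and robust eBayes, 4 at a threshold of 0.10, 38 with the covariates and 0 to 25 with 1 animal left out. The members' median in the mTR line was -0.033 with the filter at the 50th percentile, -0.0196 without the arrays with pancreas or muscle transcripts and -0.0158 to 0.0259 with 1 animal left out, so it has no stable sign. With 1 animal left out the median was 0.0548 to 0.138 for mTERT KO, -0.173 to -0.0085 for the difference of the KO effects, -0.0186 to 0.0736 between the WT groups and -0.0695 to 0.0176 for the difference of the number 1 shift; with the covariates it was 0.0915 between the WT groups and -0.0897 for the difference of the shift, and within the mTERT line alone it was 0.0835 for number 1. Leaving out those arrays could not be run for the comparisons that need mTERT WT, which loses all 3, nor by number. A mean over the probes of a gene changes nothing, since each member has 1. Covariates, single lines and their values were chosen after seeing the data. At 3 animals per group, a KO difference of 1 on the log2 scale was called for 81.5% of simulated probes; the H4 differences in the mTERT line are smaller than that.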

Other observations

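Litter 3 of the mTERT line stood high in H1f5 and in the shared H3 probes. H1f5 reached 6.77 in the KO animal and 6.27 in its WT littermate, the highest values of the 12 arrays, against 5.99 or less elsewhere. The mean of the 10 shared H3 probes was 7.49 and 7.37 in these animals and 6.71 to 7.11 in the other 10. The S-phase list of 34 genes had its highest means there as well, at 4.91 and 4.80, against 4.65 to 4.77 elsewhere. The Kupffer cell list, markers of the liver's macrophages, was also highest in both, at 7.82 and 7.88, against 6.87 to 7.40. H1f2 went the other way in the KO animal of this litter, at 6.54, the lowest value of the 12. The shared H2B mean of both animals, 6.96 and 6.91, lay within the range of the arrays numbered 2 and 3. These arrays were picked out after their values were seen, so no test is given.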
